A study of Arabidopsis thaliana with 18 samples.

Results

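ATG8B (AT4G04620), ATG8D (AT2G05630) and ATG8G (AT3G60640) are 3 genes of the Arabidopsis thaliana ATG8 family, and their transcripts were followed across 18 arrays of shoots and roots. They were chosen by name, without a threshold but with earlier results of these data known. Each was measured by 1 probe set that the annotation assigns to a single gene (255283_at, 265510_at and 251393_at). These are 3 of 22746 probe sets other than controls, and 3 of 13356 genes with a probe set of their own. All 3 lay above the floor on dim signals in both organs, so that every member was tested in every comparison.

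Autophagy is the route by which a plant cell encloses cytoplasm, organelles or protein aggregates in a double membrane and delivers them to the vacuole for breakdown. ATG8 proteins resemble ubiquitin. The protease ATG4 trims most of them to expose a glycine. The enzymes ATG7 and ATG3 pass ATG8 proteins on. These are then joined to the lipid phosphatidylethanolamine of the growing membrane, where they also bind cargo receptors. In Arabidopsis leaves autophagy recycles nitrogen, carbon and other nutrients during starvation and senescence, and plants that lack it senesce early.

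Plants of the ecotype Ws-2 were grown in 3 ways and their shoots and whole roots were collected separately. Caesium-treated plants received a dilute Murashige and Skoog nutrient solution with 2 mM caesium, an ion that competes with potassium for uptake. Potassium-starved plants received the same kind of solution with no potassium, and the labels name the third set of plants control without giving its solution. The labels state no genetic change in any group, and they give the same growth stage code, 3.9, for all of them. The 6 groups were caesium-treated, potassium-starved and control roots and caesium-treated, potassium-starved and control shoots, with 3 samples each. Each sample was a pool of 40 to 50 plants, and its RNA was measured on 1 ATH1 array from Affymetrix, a chip of short probes designed on the genome of another ecotype, Columbia. The labels do not say if the 3 samples of a group were sown separately, so that the spread behind each p-value may be technical.

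The deposited signals are linear and scaled to a common mean, and median signals lay between 33.0 and 45.4. The arrays matched their labelled organs. The signal of RCA, the activase of the enzyme Rubisco, lay between 40.5 and 185.5 on root arrays and between 2115 and 3719 on shoot arrays. That of PYK10, a beta-glucosidase of roots, lay between 1915 and 3501 on root arrays and between 46.9 and 1200 on shoot arrays. Of 9 markers listed, 7 had a probe set, and the ranges of the organs did not overlap for any of these. The titles of caesium-treated root replicate 2 and potassium-starved root replicate 1 call them repeats. Changes below are log2 changes of the signal plus 16, each with its standard error, and adjusted p-values come from limma, fitted over all tested probe sets of an organ, with Benjamini-Hochberg adjustment and a threshold of 0.05.

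All 3 genes rose in potassium-starved shoots. Since they were chosen with earlier results of these data known, the tests describe this rise and are no independent support for it. The same holds for every test below that uses the potassium-starved shoot arrays. ATG8D rose 2.80-fold in mean signal, ATG8B also 2.80-fold and ATG8G 1.67-fold. Over all 13647 probe sets tested in this comparison, 12.1% rose, and 17.2% had all 3 potassium-starved arrays above all 3 control arrays, as each of these genes did. In bulk tissue a change in the make-up of cell types cannot be told apart from a change in the RNA of each cell.

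ATG8D had signals of 427.9, 586.3 and 367.1 in potassium-starved shoots, against 157.9, 167.6 and 168.6 in control shoots, in the order of replicates 1, 2 and 3. The lowest potassium-starved array thus stood well above the highest control array, and the control arrays were close together. The mean was 460 ± 113 in potassium-starved shoots and 165 ± 5.91 in control shoots (SD, n = 3 each), a log2 change of 1.37 ± 0.18 with a limma adjusted p of 0.000600. ATG8D ranked 428 from the top among the changes of all tested probe sets.

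ATG8B had signals of 166.9, 321.9 and 146.5 in potassium-starved shoots, against 93.8, 72.5 and 60.2 in control shoots. Replicate 2 of the potassium-starved shoots lay far above the other two, yet all 3 stood above every control array. The mean was 212 ± 95.9 in potassium-starved shoots and 75.5 ± 17.0 in control shoots (SD, n = 3 each), a log2 change of 1.25 ± 0.26 with a limma adjusted p of 0.00578. Without potassium-starved shoot replicate 2 the change was 0.93.

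ATG8G had signals of 137.4, 146.2 and 145.4 in potassium-starved shoots, against 91.5, 82.8 and 81.9 in control shoots. This gene showed the smallest rise of the 3 and the tightest potassium-starved arrays. The mean was 143 ± 4.87 in potassium-starved shoots and 85.4 ± 5.30 in control shoots (SD, n = 3 each), a log2 change of 0.65 ± 0.14 with a limma adjusted p of 0.00641.

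With the authors' scaling, the log2 changes of the 13647 probe sets had a median of -0.12 in potassium-starved shoots. With each array centred on its own median the changes were 1.48 for ATG8D, 1.36 for ATG8B and 0.76 for ATG8G, and all 3 passed. They also passed without any 1 of the 6 arrays compared.

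**Figure D1:**
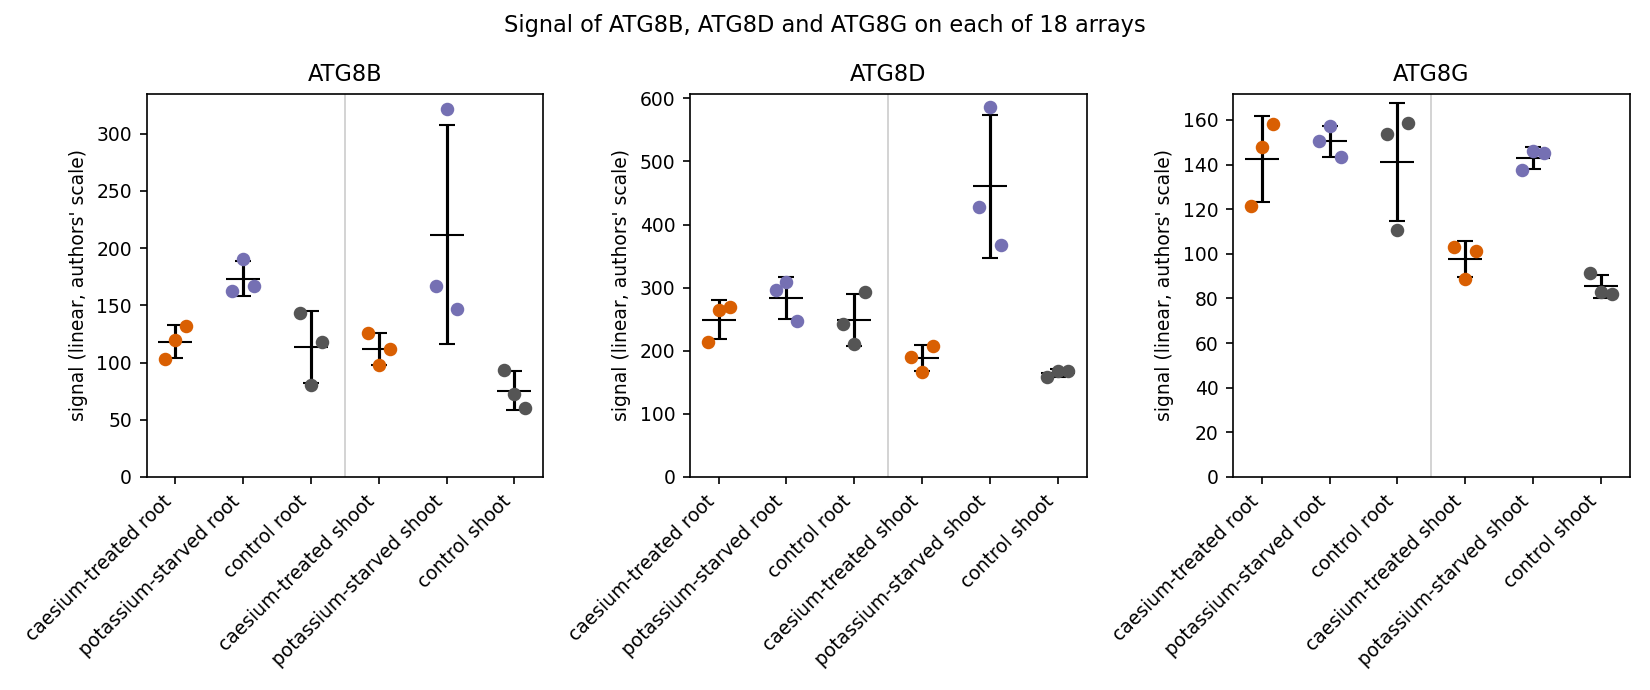
Signal of ATG8B, ATG8D and ATG8G (linear, on the authors' scale, from 0) on each of the 18 arrays, by group, with roots left of shoots. Points are arrays and black bars are the mean ± SD of 3. The potassium-starved shoot arrays of each gene stand above all control shoot arrays, and for ATG8B and ATG8D replicate 2 of that group is the highest array of all 18.

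In caesium-treated shoots none of the 3 passed the test, in a comparison in which 0.762% of probe sets rose. With the replicate number as a block, 790 probe sets passed in place of 136, and again none of the 3. With arrays centred, 63 rose and 64 fell in place of 104 and 32. The count of 136 rests on single arrays, since it was 0 without caesium-treated replicate 3, 2 without control replicate 3 and 3 without caesium-treated replicate 2. ATG8B had signals of 126.0, 98.2 and 112.0 in caesium-treated shoots, against the 93.8, 72.5 and 60.2 in control shoots given above. The groups did not overlap, as held with the treated arrays higher for 14.8% of all tested probe sets. The log2 change of ATG8B was 0.50 ± 0.26 (limma adjusted p = 0.407), with a 95% interval of -0.08 to 1.07.

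ATG8D had 190.6, 166.9 and 207.2 in caesium-treated shoots, and its groups overlapped with controls, since replicate 2 lay below the highest control array. Its log2 change was 0.17, with a 95% interval of -0.23 to 0.57. ATG8G had 103.1, 88.6 and 101.3 in caesium-treated shoots, again overlapping with controls, and a log2 change of 0.16, with a 95% interval of -0.14 to 0.47. The caesium-treated and potassium-starved shoots share the same control arrays.

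Set directly against each other, caesium-treated shoots had less ATG8D and ATG8G transcript than potassium-starved shoots, while ATG8B lay at the threshold, and 9.72% of all tested probe sets were lower in this comparison. Means were 188 ± 20.3 in caesium-treated and 460 ± 113 in potassium-starved shoots for ATG8D (SD, n = 3 each), a log2 change of -1.20 ± 0.18 with a limma adjusted p of 0.00191. For ATG8G they were 97.7 ± 7.90 in caesium-treated and 143 ± 4.87 in potassium-starved shoots, a log2 change of -0.49 ± 0.14 with a limma adjusted p of 0.0245. For ATG8B they were 112 ± 13.9 in caesium-treated and 212 ± 95.9 in potassium-starved shoots, a log2 change of -0.76 ± 0.26 with a limma adjusted p of 0.0494.

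No arrays of the groups overlapped in these 3 genes, as was so, with caesium-treated shoots lower, for 15.9% of all tested probe sets. The call of ATG8B depends on how the floor on dim signals is read. Its adjusted p of 0.0494 came with a floor on the mean log2 value, and with a floor on the mean linear signal it was 0.0502, which misses the threshold. The first floor was kept after both values had been seen. The call of ATG8B was also lost with a pseudocount of 1 or 64 and with no floor. Of the 6 fits that left out 1 array, it passed only in that without potassium-starved shoot replicate 3, and with the replicate number as a block it passed (0.0256). Its change was -0.43 (adjusted p = 0.137) without potassium-starved shoot replicate 2. The call of ATG8G was lost without any of the 3 caesium-treated shoot arrays or potassium-starved shoot replicate 3 (limma adjusted p from 0.0535 to 0.0916), and that of ATG8D passed without each of the 6 arrays.

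In potassium-starved roots none of the 3 genes passed the test, and 0.975% of all tested probe sets rose. The 200 probe sets that passed in either direction fell to 40 when replicate 3 of the potassium-starved roots was left out and to 48 when replicate 2 was. ATG8B came nearest. It had signals of 162.2, 190.5 and 166.6 in potassium-starved roots, against 143.3, 80.6 and 117.7 in control roots. The groups did not overlap, as for 10.2% of tested probe sets with the starved arrays higher. The log2 change was 0.57 ± 0.18 with a limma adjusted p of 0.141 and a 95% interval of 0.17 to 0.97, an interval not corrected for the number of probe sets.

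ATG8D had 295.9, 308.8 and 246.6 in potassium-starved roots, against 242.6, 210.6 and 292.9 in control roots. The groups overlapped, and the log2 change of 0.19 had a 95% interval of -0.16 to 0.54. ATG8G had 150.6, 157.4 and 143.2 in potassium-starved roots, against 153.7, 110.7 and 158.8 in control roots. Here too the groups overlapped, with a low control replicate 2, and the log2 change of 0.10 had a 95% interval of -0.25 to 0.44. The scanner background averaged 65.3 ± 7.48 on potassium-starved root arrays and 77.0 ± 1.89 on control root arrays (SD, n = 3 each), without overlap. Its part in these values was not tested beyond a fit with it as a covariate, in which none of the 3 passed either. Only 1 of 13647 probe sets passed in that fit, in place of 200, so that it could hardly call any gene. The scanner background averaged 67.5 ± 4.55 on caesium-treated root arrays, also without overlap with control roots.

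In caesium-treated roots none of the 3 genes passed, and all mean changes were small. ATG8B had 103.2, 119.5 and 131.7 in caesium-treated roots, ATG8D had 214.0, 264.0 and 270.0, and ATG8G had 121.3, 148.0 and 158.2, all overlapping with the control values above. Log2 changes were 0.07, 0.01 and 0.02 for ATG8B, ATG8D and ATG8G, with 95% intervals of -0.33 to 0.47, -0.34 to 0.36 and -0.32 to 0.37. No probe set passed in this comparison (0 of 13647 by limma, 0%), although 1352 had an unadjusted p under 0.05 and 51 passed with the replicate number as a block, none of the 3 among them.

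Between caesium-treated and potassium-starved roots ATG8B had a log2 change of -0.50 ± 0.18 (limma adjusted p = 0.120), and its groups did not overlap, as for 13.8% of tested probe sets with caesium-treated roots lower. ATG8D and ATG8G overlapped and had changes of -0.18 and -0.08. In this comparison 2.56% of all tested probe sets were lower.

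**Figure D2:**
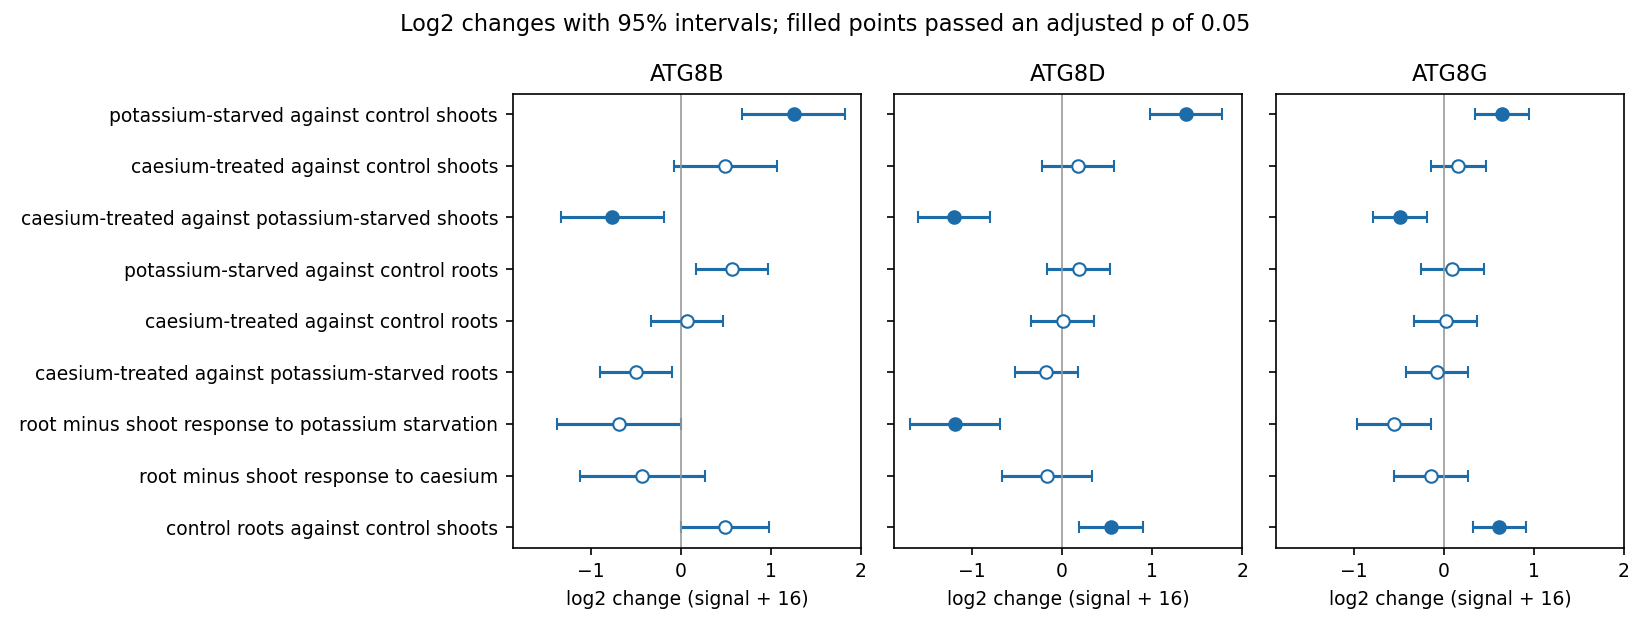
Log2 change of the signal plus 16 for ATG8B, ATG8D and ATG8G in 9 comparisons, with 95% intervals from limma that are not corrected for the number of probe sets. Filled points passed an adjusted p of 0.05. Each gene has a filled point for potassium-starved against control shoots, and none has one in the 3 treatment comparisons of roots.

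The difference between the organs in the response to potassium starvation was tested itself, over the 11867 probe sets that passed both floors. For ATG8D the root response minus the shoot response was -1.19 ± 0.24 on the log2 scale, with a limma adjusted p of 0.00481, and 5.12% of probe sets had a lower response in roots. The difference was -0.68 ± 0.33 for ATG8B (limma adjusted p = 0.191) and -0.55 ± 0.20 for ATG8G (limma adjusted p = 0.0796), which did not pass and does not show equal responses in these 2 genes. Without control root replicate 2 the difference of ATG8G was -0.70 and passed (adjusted p = 0.0287). The responses to caesium did not pass for any of the 3, with differences of -0.42, -0.16 and -0.14 for ATG8B, ATG8D and ATG8G, and 0.177% of probe sets passed.

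In control plants the roots had more ATG8D and ATG8G transcript than the shoots. The mean of ATG8G was 141 ± 26.4 in control roots and 85.4 ± 5.30 in control shoots (SD, n = 3 each), a log2 change of 0.62 ± 0.14 with a limma adjusted p of 0.00124. That of ATG8D was 249 ± 41.5 in control roots and 165 ± 5.91 in control shoots, a log2 change of 0.54 ± 0.17 with a limma adjusted p of 0.0132. Neither gene's groups overlapped, while those of ATG8B did, with a change of 0.49 ± 0.23 and an adjusted p of 0.0905. Over all probe sets, 29.4% were higher in control roots and 35.4% had roots above shoots without overlap. The call of ATG8D was lost without control root replicate 3 (adjusted p = 0.0751), and ATG8B passed without control root replicate 2 (adjusted p = 0.0306).

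The order of the 6 groups, by mean signal, began in the same way for the 3 genes, with control shoots lowest, then caesium-treated shoots, control roots and caesium-treated roots. For ATG8D, potassium-starved roots came next and potassium-starved shoots stood highest. Of its neighbours in this order, control roots lay above caesium-treated shoots and potassium-starved shoots above potassium-starved roots without overlap, while the other neighbours overlapped. For ATG8B the order was the same. Its caesium-treated shoots lay above control shoots and its potassium-starved roots above caesium-treated roots without overlap, but its highest groups, potassium-starved shoots and roots, overlapped. For ATG8G the highest mean was that of potassium-starved roots, 150.4 ± 7.10 (SD, n = 3), which overlapped with potassium-starved shoots, and only caesium-treated shoots and control roots were neighbours without overlap.

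The sizes of the rise in potassium-starved shoots were compared between the 3 genes, a comparison added after the data had been seen. The change of ATG8G minus that of ATG8D was -0.72 on the log2 scale, with no overlap between the arrays (two-sided exact permutation p = 0.1, the smallest that 3 against 3 arrays allow, and 0.3 adjusted over 3 pairs). ATG8G minus ATG8B was -0.60 (exact p = 0.2, adjusted 0.3) and ATG8D minus ATG8B was 0.12 (exact p = 0.6, adjusted 0.6), both with overlap. None of these differences could pass at 0.05 in this design.

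The other 6 genes of the ATG8 family each had a probe set that passed the floor in both organs. In potassium-starved shoots 6 of the 9 family members rose and none fell, where 12.1% of all tested probe sets rose and 17.1% fell. Beside the 3 above, the family members that rose were ATG8A, ATG8H and ATG8I. The first and the last of these are listed in the annotation as APG8A and APG8H. All 9 changes were positive, with a median of 0.65, against a median of -0.12 over all tested probe sets. The rise of 4 of the autophagy genes was already known when the members and the list were chosen, so that these counts are a description.

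ATG8A had signals of 330.0, 639.9 and 271.7 in potassium-starved shoots, against 168.7, 189.0 and 165.0 in control shoots, a log2 change of 1.08 ± 0.27 with a limma adjusted p of 0.0132. Its potassium-starved arrays all lay above controls, and it passed without any 1 array. ATG8I had 607.2, 940.9 and 738.6 in potassium-starved shoots, against 517.5, 481.2 and 451.4 in control shoots, a log2 change of 0.62 ± 0.17 with a limma adjusted p of 0.0219. Its groups did not overlap either, but it did not pass without potassium-starved shoot replicate 2 (adjusted p = 0.0557) or control shoot replicate 3 (0.0784).

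ATG8H had 87.5, 172.4 and 61.4 in potassium-starved shoots, against 62.4, 43.1 and 39.7 in control shoots. The groups overlapped, and the log2 change of 0.85 ± 0.29 passed narrowly (limma adjusted p = 0.0472). It did not pass with a pseudocount of 64 (0.0680), with no floor (0.0957), or without any 1 of the arrays other than potassium-starved shoot replicate 3 (up to 0.138). ATG8C, ATG8E and ATG8F had log2 changes of 0.57, 0.41 and 0.02 and did not pass.

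Each of the 9 ATG8 genes had its highest potassium-starved shoot signal in replicate 2, which held the highest of the 3 signals for 26.6% of all tested probe sets. Without this array 4 of the 9 rose, and 4 also without control shoot replicate 3. Over all 13647 tested probe sets 1247 and 1045 rose in these fits, in place of 1645. In caesium-treated against potassium-starved shoots 5 of the 9 were lower, where 9.72% of all tested probe sets were. These were ATG8A and ATG8I beside the 3 genes above, or 4 genes with the floor on the linear mean that ATG8B did not pass. The count of ATG8 genes was 1 without each of the caesium-treated shoot replicates in turn and 2 without potassium-starved shoot replicate 2. In those fits 751 to 840 of 13647 probe sets were lower, in place of 1327. In roots none of the 9 passed in either treatment against control, and ATG8E was lower in caesium-treated than in potassium-starved roots, at 331 ± 37.6 in caesium-treated and 624 ± 112 in potassium-starved roots (SD, n = 3 each; log2 change -0.87 ± 0.17, limma adjusted p = 0.0198). That call was lost without caesium-treated root replicate 1 or 3 or potassium-starved root replicate 2 or 3 (limma adjusted p from 0.0507 to 0.0841). In control plants 6 of the 9 were higher in roots than in shoots, with ATG8H at 1.89 and ATG8A at 1.76 on the log2 scale, and none was lower, where 29.4% of all tested probe sets were higher in roots. For the root minus the shoot response to potassium starvation, 1 of the 9, ATG8D, was lower, where 5.12% of all tested probe sets were. Of the 9 differences, 2 were positive. That of ATG8H was close in size to that of ATG8D, at -1.17 ± 0.37, and did not pass (limma adjusted p = 0.0536).

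The list of other autophagy genes held 41 genes of the ATG8 and ATG12 conjugation enzymes, the ATG1 kinase complex, the phosphatidylinositol 3-kinase complex, the ATG2, ATG9 and ATG18 group, cargo receptors and nutrient kinases. A probe set of a single gene was annotated for 12 of them, and 10 were tested in each organ. The other 29 were not assessed, among them the cargo receptor NBR1, the ATG18 genes and the kinases KIN10 and TOR. In potassium-starved shoots none of the 10 rose and 2 fell, where 17.1% of all tested probe sets fell. Their median change was -0.16, close to that of all tested probe sets.

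AT5G50230, entered in the list as ATG16, averaged 72.5 ± 13.9 in potassium-starved shoots and 109 ± 15.5 in control shoots (SD, n = 3 each), a log2 change of -0.50 ± 0.17 with a limma adjusted p of 0.0450. RAPTOR1B, a subunit of the TOR complex that senses nutrients and restrains autophagy, averaged 68.5 ± 8.60 in potassium-starved shoots and 100 ± 13.0 in control shoots, a log2 change of -0.46 ± 0.16 with a limma adjusted p of 0.0451. Neither passed with arrays centred on their medians (0.0656 and 0.0918) or after quantile normalization (0.0721 and 0.0975). Without 1 array, AT5G50230 passed in 2 of 6 fits and RAPTOR1B in 1.

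ATG3, the enzyme that joins ATG8 to its lipid, had a log2 change of 0.17 in potassium-starved shoots, and AT3G59950, entered as the ATG8 protease ATG4B, had -0.07. The ATG1 kinase genes AT3G61960, AT2G37840 and AT1G49180, entered as ATG1A, ATG1C and ATG1T, had changes of 0.27, -0.52 and -0.59. AT5G66930, entered as ATG101, had 0.02, AT1G77890, entered as ATG14A, had -0.07, and AT2G32760, entered as VPS38, had -0.24. None of these 8 passed. AT2G37840 and AT1G77890 each have a further probe set that lay below the floor in shoots.

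In caesium-treated against potassium-starved shoots 3 of the 10 were higher, where 18.7% of all tested probe sets were. RAPTOR1B had a change of 0.69 (limma adjusted p = 0.0102), AT5G50230 of 0.62 (0.0214) and AT2G37840 of 0.69 (0.0321). The call of RAPTOR1B held without each of the 6 arrays, while those of the other two held in 2 of 6 such fits. Of 8 other settings, RAPTOR1B passed in 8, AT5G50230 in 7 (limma adjusted p up to 0.0501) and AT2G37840 in 5 (up to 0.0707). The mean of AT2G37840 was 33.1 ± 9.67 in potassium-starved shoots (SD, n = 3), near the floor of 26.7. In roots the 10 tested genes held AT3G53930, entered as ATG1B, in place of AT1G49180, and none passed in any of the 3 treatment comparisons. AT3G53930 had a log2 change of 0.09 in potassium-starved roots. Of 9 genes tested in both organs, 5 were higher in control roots than in control shoots, against 29.4% of all tested probe sets.

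**Figure D3:**
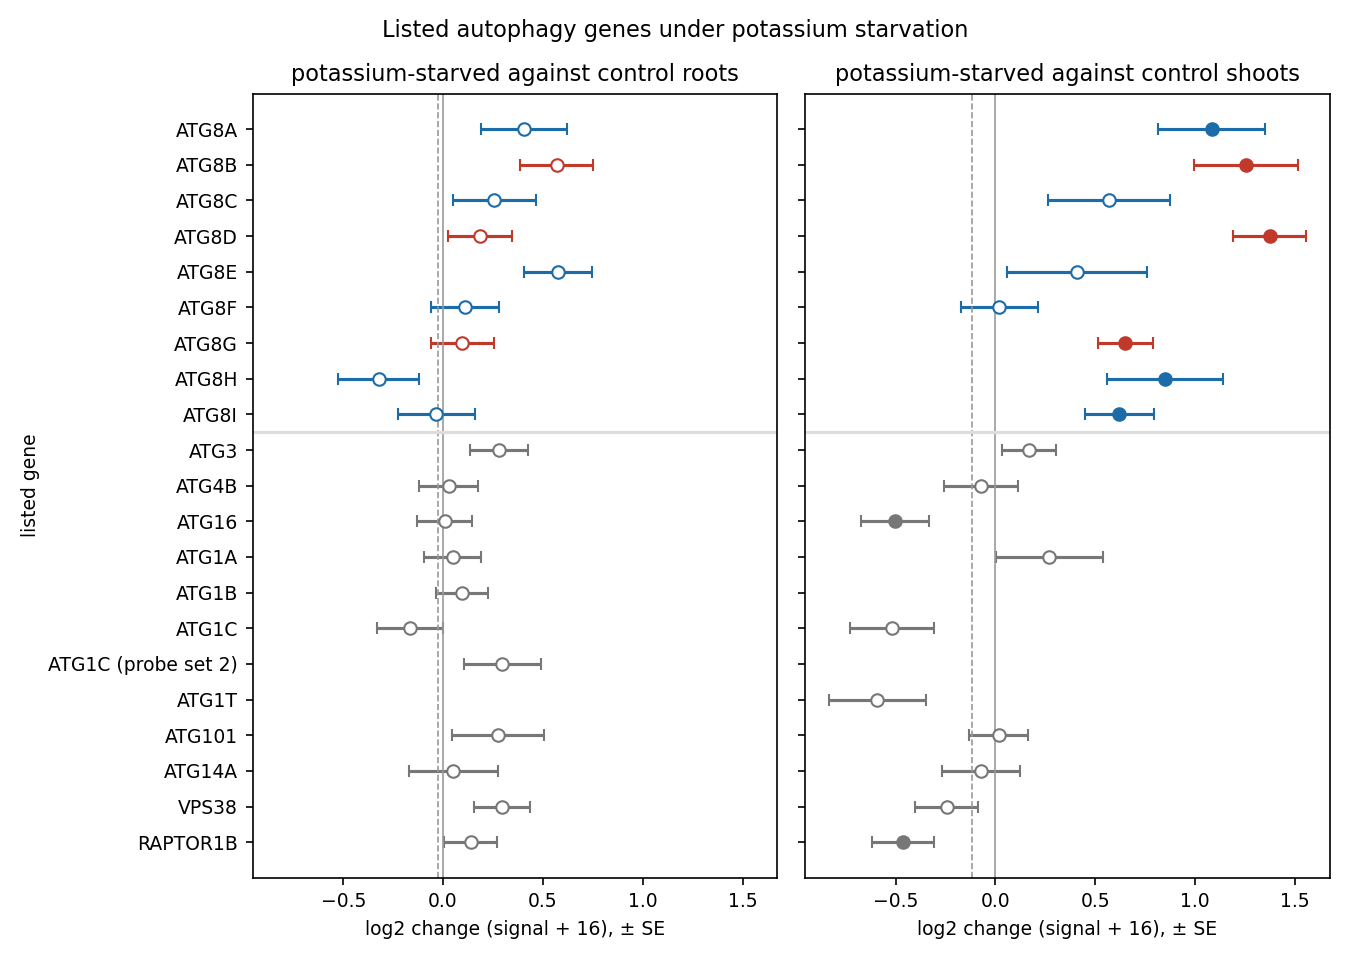
Log2 change (± SE) of listed autophagy genes in potassium-starved against control roots (left) and shoots (right), with the 3 ATG8 genes in red, the other ATG8 genes in blue and other listed genes in grey. Filled points passed an adjusted p of 0.05, dashed lines are the medians of all tested probe sets, and a gene below the floor of an organ has no point there. In shoots 6 of the 9 ATG8 genes are filled to the right of 0 and 2 other genes to its left, and in roots none is filled.

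The genes whose values were most like those of each member were sought among 6385 probe sets of a single gene that passed the floor of each organ. Likeness was the root mean square difference, over the 18 arrays, of log2 values relative to the mean of the control arrays of the same organ, so that a smaller value is closer. For ATG8D the closest were AT5G51260 (0.139), AT3G61980 (0.157), MSRB3 (0.175), a methionine sulfoxide reductase, and AT1G77370 (0.181), against a median of 0.681 over the candidates. For ATG8G they were AT5G03905 (0.0992), AT3G49310 (0.147), AT5G57860 (0.150) and AT5G18900 (0.152), against a median of 0.432.

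For ATG8B they were AT5G45350 (0.235), AT4G01610 (0.240), SKP2A (0.2440), an F-box protein, and AT4G22820 (0.2443), against a median of 0.730. The closest genes of ATG8D had changes between 1.12 and 1.51 in potassium-starved shoots and between 0.13 and 0.27 in potassium-starved roots. Among the members, ATG8B and ATG8D differed by 0.277, ATG8D and ATG8G by 0.325, and ATG8B and ATG8G by 0.399. Likeness so measured follows the size of the changes, and 13 candidates were closer to ATG8B than ATG8D was. For ATG8G, 181 candidates were closer to ATG8B than it was, and 170 were closer to ATG8D.

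**Figure D4:**
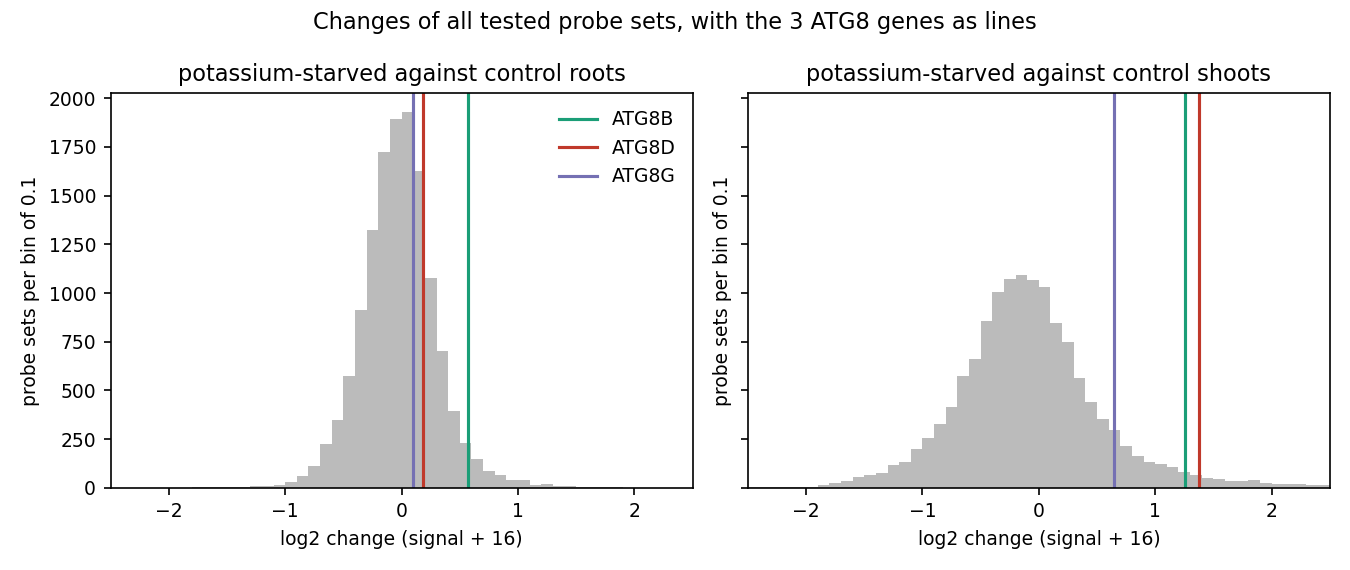
Log2 changes of all tested probe sets (grey, number per bin of 0.1) in potassium-starved against control roots (left) and shoots (right), with lines at the changes of ATG8B, ATG8D and ATG8G. In shoots the lines stand at 1.25, 1.37 and 0.65, and in roots at 0.57, 0.19 and 0.10, to the right of most probe sets in both organs. ATG8B ranked 528 from the top in shoots and 498 in roots, where it did not pass the test.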

How the data were processed

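Shoots and roots of 6 groups were measured on 18 ATH1 arrays with 22810 probe sets, of which 64 were controls. The deposited intensities are linear, and all arrays were scaled to 1 trimmed mean in the deposited files. None of the sources used here names the program. Per the labels, RNA was extracted with a kit and biotin-labelled cRNA was made from an oligo-dT primer.

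Here 16 was added to each intensity before the log2 was taken. Probe sets were tested where their mean log2 value in an organ lay above its 40th percentile (signal 26.7 in shoots, 27.7 in roots), 13647 per organ. The design asked for a floor on the mean signal, which can also be read as the linear mean. Both readings were run before the log2 reading, that of an earlier treatment of these data, was kept, and 1 call named in the report depends on it. Models were fitted with limma 3.58.1 in R 4.3.3 to the 9 arrays of an organ, or to all 18 and 11867 probe sets for comparisons between organs, and were tested on simulated data. Sizes depend on the 16 added. Probe sequences were not used, so that cross-hybridisation between ATG8 genes was not assessed.

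The annotation named 13513 probe sets by 1 gene, 503 by several and 8730 not at all. The members and lists were chosen with earlier results of these data known. Named are the 3 members, every listed autophagy gene with a probe set of its own and tested, and, per member, the 4 genes most like it.

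Replicate numbers were taken to pair samples where arrays of the same number deviated together from their group means with r above 0.1 for every number. This held for the 3 shoot comparisons (lowest r 0.319, 0.495 and 0.207) and caesium-treated against control roots (0.180), not for the other root comparisons (-0.0299 and 0.0864) or between organs (0.00470). The main fits had no replicate block, also where this pairing held, so that their p-values do not use it. Alternatives were other pseudocounts, no floor, the linear floor, other scalings, the replicate block, the scanner background as a covariate and arrays left out.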

Additional observations from a re-analysis of the deposited data

Results flagged for a closer look

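The response of ATG8D to potassium starvation differed between the organs. This difference draws on the same potassium-starved shoot arrays as the rise of ATG8D, which was chosen with earlier results of these data known. The test is thus a description and no independent support. The root response minus the shoot response was -1.19 ± 0.24 on the log2 scale (limma interaction term over 18 arrays, adjusted p = 0.00481). The mean signal was 284 ± 32.8 in potassium-starved roots and 249 ± 41.5 in control roots, and 460 ± 113 in potassium-starved shoots and 165 ± 5.91 in control shoots (SD, n = 3 each). The difference passed without each of the 12 arrays in turn, between -1.33 and -1.01, and was -1.21 with the scanner background as a covariate (adjusted p = 0.0155).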

How the results depend on the processing

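The rises of ATG8B, ATG8D and ATG8G in potassium-starved shoots passed by limma under all 8 other settings run and without each of the 6 arrays, and so did the lower ATG8D level in caesium-treated than in potassium-starved shoots. The difference between organs in ATG8D passed in all 9 other settings and without each of 12 arrays. For ATG8B, caesium-treated against potassium-starved shoots, the change was -0.83 with a pseudocount of 1 (adjusted p = 0.0592), -0.60 with 64 (0.0561), -0.76 with no floor (0.0917) and -0.76 with the floor on the linear mean (0.0502), losing the call. With 1 array left out it ran between -0.96 and -0.43, and ATG8G in that comparison between -0.52 and -0.43, so that 1 to 2 of the 3 genes passed. The count of ATG8 genes lower there was 3 with no floor and 1 to 5 with 1 array left out. In caesium-treated against control roots, where nothing passed, ATG8D and ATG8G turned to -0.023 and -0.011 with arrays centred and to -0.034 and -0.0077 without the arrays titled as repeats, and ATG8D to -0.11 with the scanner background as a covariate. With 1 array left out, ATG8B there ran between -0.13 and 0.23, ATG8D between -0.10 and 0.13 and ATG8G between -0.13 and 0.12. ATG8G ran between -0.051 and 0.18 in potassium-starved against control roots and between -0.15 and 0.023 in caesium-treated against potassium-starved roots. Its difference between organs in the response to potassium starvation ran between -0.70 and -0.47, with 1 to 2 genes past the threshold. Between control organs ATG8B ran between 0.33 and 0.69 and ATG8D between 0.42 and 0.65, with 1 to 3 genes past it. The cause was not tested.

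The replicate block changed no call of the 3 genes (1.37 for ATG8D in potassium-starved shoots, adjusted p = 0.000272). The planned block within each organ was not run for control roots against control shoots, on which it cannot bear. A block shared by both organs (0.54 for ATG8D), the linear floor and the family counts were added after the data were seen.

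Of all probe sets, 136 passed in caesium-treated shoots, against 50 with a pseudocount of 1, 30 with no floor, 206 with the covariate and 790 with the block. In potassium-starved roots 200 passed, against 130 with a pseudocount of 1, 93 with no floor, 1 with the covariate, 128 without the repeats and 724 with the block. In caesium-treated roots 0 passed, against 1 with no floor or without the repeats and 51 with the block. Between caesium-treated and potassium-starved roots 690 passed, against 331 with the covariate, 377 without the repeats and 1629 with the block. For the organ difference under potassium starvation 1187 passed, against 747 without the repeats and 2125 with the block, and for that under caesium 21, against 6 with a pseudocount of 1 or the covariate, 2 without the repeats and 165 with the block. Between control organs 5661 passed, against 9507 with no floor. With arrays centred, 1996 rose and 1825 fell in potassium-starved shoots, in place of 1645 and 2338, and 1532 were higher and 2155 lower in caesium-treated against potassium-starved shoots, not 2558 and 1327. With 1 array left out, 2372 to 3808 passed in potassium-starved shoots, 0 to 121 in caesium-treated shoots, 2102 to 3659 between them, 40 to 238 in potassium-starved roots, 0 to 13 in caesium-treated roots, 149 to 623 between these, and 744 to 1580 (potassium) and 1 to 30 (caesium) for the organ differences.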
